A study of Caenorhabditis elegans with 2 samples.

Results

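The peaks described here are the calls of the tagged protein ROW-1 on the X chromosome of Caenorhabditis elegans that lay away from annotated gene starts. They were chosen by the signal and position of the calls in a list that the authors made from both replicates pooled: a signal of 50 or more, and a summit that fell in no promoter window. A promoter window covered the 500 bp before and the 200 bp after each transcript start in the gene models, whatever the type of gene. The rule chose 234 of the 601 calls on X at that signal, and of 2780 such calls in the genome. Because signal chose the peaks, signals are given as a description and are not tested. The signal is the authors' own value per call, and its scale is not known here.

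The animals were whole hermaphrodites of strain OP510, genotype unc-119(tm4063) III; wgIs510, in which an integrated transgene adds GFP-FLAG to the C-terminus of F37D6.2, the product of row-1. They were collected as L4 larvae, 48 h after synchronization of L1 larvae that had been starved after bleaching. Chromatin was sonicated, recovered with an antibody against GFP and sequenced (chromatin immunoprecipitation and sequencing, ChIP-seq). There was 1 group of 2 biological replicates and so no contrast of conditions. No control library, no untagged strain and no other GFP-tagged protein was analysed here, so sites that yield signal with any GFP-tagged protein cannot be told apart from sites particular to ROW-1. Whole animals pool all tissues, so fewer cells with a bound site and less binding per cell cannot be told apart.

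In C. elegans, hermaphrodites have a pair of X chromosomes and males a single one. The dosage compensation complex, a condensin-like assembly, lowers transcription from both X chromosomes of the hermaphrodite. It is loaded at recruitment elements on X (rex sites), many of which lie between genes and carry clustered copies of the MEX motif (motif enriched on X), a GC-rich element whose core is close to GCGCAGGGA. The deposited files annotate no rex sites, and no position below is named as one. Repeats of GA are another common element of worm regulatory DNA.

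The strongest of these peaks carried a MEX-like word close to the summit, and it is shown here because it was found at many of the strongest peaks and few of the weaker ones. The word GCGNAGGGA, where N is any base, was searched on both strands; where N is C it contains the listed motifs GCGCAGG and CGCAGGGA. The 16 peaks with the highest signal, a group described below, held 18 matches within 150 bp of the summit, in 11 of the 16 peaks. Each match is printed 5′ to 3′ on its own strand of X (sequence from RefSeq, WBcel235, the assembly also called ce11), with 10 bases on each side and the match in capitals; the gene names the peak by its host gene or nearest protein-coding gene, and the order is that of the signal.
W02H3.3, chrX:11094114-11094142, minus strand: gttttatatcGCGCAGGGAgcttatgcat
W02H3.3, chrX:11094215-11094243, minus strand: ggaaccattcGCGCAGGGAcacctcactg
W02H3.3, chrX:11094231-11094259, minus strand: gttgaacattGCGAAGGGAaccattcgcg
ZK899.6, chrX:9465873-9465901, plus strand: gaaaatttagGCGAAGGGAgagatactga
mom-1, chrX:6296501-6296529, plus strand: attattttaaGCGAAGGGAcacccaatcg
mom-1, chrX:6296566-6296594, plus strand: gataggtatcGCGCAGGGAagatttaccg
nspc-17, chrX:14525889-14525917, minus strand: attgcctatcGCGCAGGGAcagatgtggt
nspc-17, chrX:14525915-14525943, plus strand: aatagtcatcGCGAAGGGAcacattttgc
F20B6.9, chrX:4209255-4209283, minus strand: tgccgctatcGCGCAGGGAcacctctttc
F20B6.9, chrX:4209282-4209310, plus strand: caattttatcGCGAAGGGAgctcaggtgc
Y41G9A.17, chrX:2997061-2997089, minus strand: attatttatcGCGAAGGGAggtgtaccta
Y41G9A.17, chrX:2997112-2997140, minus strand: taaatttatcGCGCAGGGAggaagtagcc
F55G7.5, chrX:11937446-11937474, minus strand: gtatcaaatcGCGGAGGGAcattgccaaa
F22H10.2, chrX:16682161-16682189, minus strand: agaaaacatcGCGCAGGGAacatcaaatt
gtr-1, chrX:806740-806768, plus strand: aaaccgatacGCGCAGGGAaaaaaaaata
fbxb-58, chrX:1627096-1627124, plus strand: ttctcccatcGCGAAGGGAtactttcgca
pks-1, chrX:5429546-5429574, minus strand: ctaagcattgGCGAAGGGAcacgagatga
pks-1, chrX:5429580-5429608, plus strand: attaaatttaGCGCAGGGAggacgccgtt
Of these 18 matches, 11 (61.1%) directly followed the letters ATC. Among the 76 matches outside promoter windows on X that lay more than 150 bp from any of the 234 summits, 2 (2.63%) did, and among 335 outside promoter windows on the autosomes 13 (3.88%) did. This was noticed in the printed sequences, and no test was made. Among the 218 weaker peaks, 10 held a match within 150 bp, with 1 match each, and 2 of those 10 matches followed ATC. The 3 strongest of the 10 were these.
col-185, chrX:13514548-13514576, plus strand: tacctttatcGCGCAGGGAtattgaaatc
hlh-29, chrX:17544508-17544536, plus strand: attttttattGCGAAGGGAgaataacaat
T24D8.6, chrX:2364888-2364916, minus strand: aaataattaaGCGCAGGGAtatatagtac
The surrounding sequence shows how the matches lie. In the 201 bases centred on the summits near W02H3.3 and F20B6.9, matches on the strand shown are in capitals as printed above and matches on the other strand appear as their reverse complement, also in capitals. The window near K02D3.1 is shown for contrast, since it belonged to a peak with a signal of 1383, near that of F20B6.9 (1482), and held no full match. It did hold GCGAAGGG on the minus strand, which is the word without its last base, followed there by C rather than A.
W02H3.3, chrX:11094107-11094307, plus strand: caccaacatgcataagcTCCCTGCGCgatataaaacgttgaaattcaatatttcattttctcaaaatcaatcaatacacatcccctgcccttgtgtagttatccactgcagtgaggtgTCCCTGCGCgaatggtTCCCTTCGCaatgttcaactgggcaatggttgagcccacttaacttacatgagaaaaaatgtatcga
F20B6.9, chrX:4209177-4209377, plus strand: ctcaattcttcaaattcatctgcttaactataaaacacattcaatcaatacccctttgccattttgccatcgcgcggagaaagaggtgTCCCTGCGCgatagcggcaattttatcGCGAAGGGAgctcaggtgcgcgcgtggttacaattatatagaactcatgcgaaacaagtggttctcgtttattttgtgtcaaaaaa
K02D3.1, chrX:13700766-13700966, plus strand: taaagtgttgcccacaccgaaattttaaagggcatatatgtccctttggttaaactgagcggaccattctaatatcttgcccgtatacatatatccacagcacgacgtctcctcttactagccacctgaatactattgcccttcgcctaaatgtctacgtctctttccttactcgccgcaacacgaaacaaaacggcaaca

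The signals of the 234 peaks ran from 50.2 to 1720 with a median of 83.1, and a step divided them. The 16 strongest peaks had signals from 682 to 1720, and the next, near the collagen gene col-185, had 457, a ratio of 1.49 across the step. The step was seen in the ordered signals, so the groups of 16 and 218 are descriptive. They are also not fully separate. The wide calls near F55G7.5, ZK899.6, nspc-17, fbxb-58 and F56C3.1, all among the 16, each had another, weaker summit that counts among the 218. Among all 2759 nuclear calls at the same threshold, 22 reached 682. These were the 16 non-promoter peaks on X, 1 promoter peak on X, 4 autosomal promoter peaks and 1 autosomal non-promoter peak, whose signal was 946. The rest of the 2780 calls at the threshold lay outside the nuclear chromosomes and were not examined. Over all 2780 calls the strongest of the 16 ranked 6th and the weakest 36th, so some of those unexamined calls had higher signals. The 16 calls were also wide, with a median of 722 bp (463 to 1151) against 430 bp (108 to 1115) for the other 218. Many of the 218 had exactly 430 bp, which was also the median of the promoter peaks on X and of both autosomal sets. Whether 430 bp is a measured width is not known here.

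**Figure D1:**
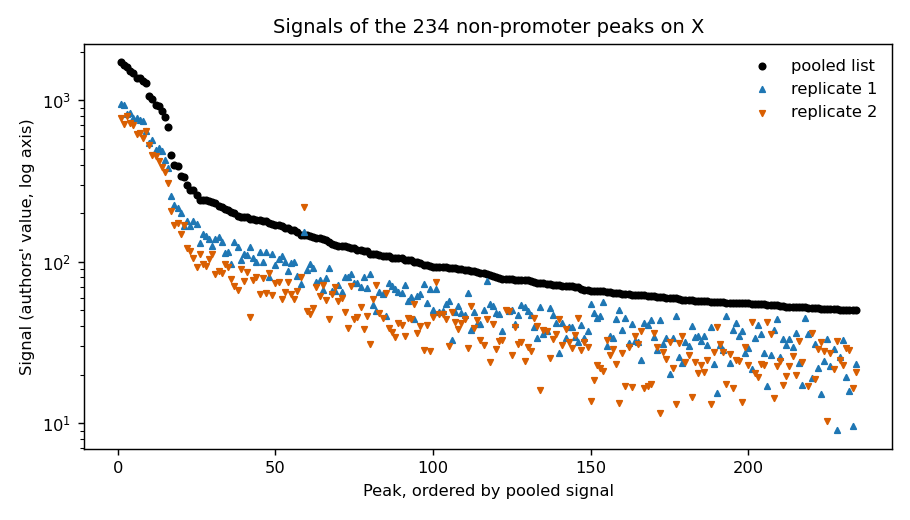
Signal of each of the 234 peaks in the pooled list (black), in replicate 1 (blue) and in replicate 2 (orange), with peaks ordered by pooled signal and the signal on a log axis. The 16 strongest peaks sit above a step from 682 to 457 in the pooled list, and in each replicate they lie above all other points.

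Among the 16, the strongest peak of all lay between genes, 3979 bp downstream of the 5′ end of W02H3.3 (chrX:11093787-11094566), with a signal of 1720 in the pooled list, 944 in replicate 1 and 780 in replicate 2. It held 3 matches to GCGNAGGGA. The peak nearest ZK899.6 (chrX:9465473-9466236) had 1649, 942 and 714 in the same order, with 1 match. The third lay in an intron of mom-1 (chrX:6296134-6296965), the worm Porcupine gene needed for the secretion of Wnt ligands, with 1620, 829 and 802 and 2 matches. For all 3, the replicate signals were above those of any of the 218 weaker peaks.

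The peak upstream of nspc-17 (chrX:14525359-14526473), a member of a nematode-specific peptide family, had a signal of 1526 in the pooled list, 830 in replicate 1 and 726 in replicate 2. The peak upstream of F20B6.9 (chrX:4208532-4209682) had 1482, 779 and 700, and the intronic peak of Y41G9A.17 (chrX:2996587-2997514) had 1369, 761 and 624. Each of these 3 peaks held a pair of matches. In nspc-17 and F20B6.9 the pair lay on opposite strands, with centres 8 bp to the left and 18 or 19 bp to the right of the summit.

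Single matches were also found in 4 more intergenic peaks, besides that near ZK899.6. The peak nearest F55G7.5 (chrX:11937171-11937889) had 1319 in the pooled list, 742 in replicate 1 and 581 in replicate 2, and the peak nearest F22H10.2 (chrX:16681810-16682355) had 1024, 566 and 462. The peak nearest gtr-1 (chrX:806423-806958) had 927, 506 and 424, and the peak near fbxb-58 (chrX:1626838-1627489), an F-box gene, had 864, 488 and 388. The only one of the 16 in a coding exon lay in pks-1 (chrX:5429282-5429744), which encodes a polyketide synthase, with 786, 426 and 361 and 2 matches.

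The other 5 peaks held no match within 150 bp, and their signals spanned most of the range of the 16. The peak near K02D3.1 (chrX:13700492-13701215) had 1383 in the pooled list, 775 in replicate 1 and 617 in replicate 2, and the peak near T27A8.7 (chrX:16056177-16056929) had 1273, 642 and 642. The peak near F19H6.5 (chrX:12362814-12363521) had 1062, 546 and 532, that near ins-39 (chrX:1344749-1345408), which encodes an insulin-like peptide, had 943, 492 and 453, and that near F56C3.1 (chrX:1389215-1389919) had 682, 379 and 309. A shorter word, GCGNAGG, was found within 150 bp of 15 of the 16 summits (93.8%), against 15.1% of the 218 weaker peaks, 6.40% of the 734 autosomal non-promoter peaks and 3.21% of all non-promoter windows of that length on X.

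The replicates gave the same picture of the 16. Their signals ran from 379 to 944 in replicate 1, where the highest of the other peaks had 254. In replicate 2 they ran from 309 to 802, where the highest of the other peaks had 217. That value belonged to the weaker summit of the wide call near nspc-17, and the peak near col-185 had 205. All 16 ranked 37th or better among the calls of each replicate, and the ratio of replicate 1 to replicate 2 stayed between 1.000 and 1.32. The pooled list was made from these replicates, so this is no independent test of the step. Neighbours among the 16 lay from 44.5 to 3169 kb apart, with a median of 867 kb, and cutting X into 6 equal lengths gave 4, 3, 1, 2, 4 and 2 of the 16.

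Below the step, the signal fell gradually. The peak near col-185 (chrX:13514407-13514761) had 457 in the pooled list, 254 in replicate 1 and 205 in replicate 2. The peak near ZC53.1 had 397, 224 and 170, that near hlh-29, a basic helix-loop-helix gene, had 391, 214 and 175, and that near B0294.3 had 342, 200 and 148. Signals of 100 or more were found for 95 of the 234 peaks and of 200 or more for 37. At the threshold, the weakest peaks inside were those at lst-2 with 50.33, F15G9.5 with 50.19 and F09E10.5 with 50.18, and the strongest X calls outside were those at R03G5.6 with 49.73, unc-7 with 49.48 and F27D9.12 with 49.41. No step separates these values, so the lower edge of the set is that of the rule.

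Over the whole set the replicates agreed less closely than over the 16. A call overlapped 233 of the 234 peaks in replicate 1 (median signal 49.4, range 9.02 to 944) and 233 in replicate 2 (median 38.2, range 10.3 to 802), and 232 had both. A peak near ZK470.2, with a pooled signal of 78.3, had no call in replicate 1, and one in lgc-47, with 52.2, had none in replicate 2. Across the 232 peaks, which share their libraries, Spearman's rho between the replicates was 0.752, against 0.699 for the promoter peaks on X and 0.537 for the autosomal non-promoter peaks. The sets differ in their range of signal, so these values are not directly comparable. A pooled signal of 500 or more was found for 16 of the 234, 1 of the 367 promoter peaks on X and 1 of the 734 autosomal non-promoter peaks. The ratio of replicate 1 to replicate 2 had a median of 1.31, was above 1 in 181 of 232 peaks, and ran from 0.281 to 3.98. Of the 234 peaks, 160 (68.4%) overlapped the 2780 strongest calls of each replicate, against 74.4% of promoter peaks on X and 67.3% of autosomal non-promoter peaks. The authors' optimal list, which keeps the calls past their reproducibility threshold, overlapped 135 of them (57.7%), against 61.6% of promoter peaks on X and 50.5% of autosomal non-promoter peaks, and the lowest signal in that list was 74.8. By signal, it overlapped all 60 peaks ranked 61 to 120 but 1 of the 54 ranked 181 to 234. These shares are therefore not independent of the signal that chose the peaks.

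The peaks lay mostly between genes. Intergenic summits made up 163 of the 234 (69.7%, exact Clopper-Pearson 95% interval 63.3 to 75.5), and 58 (24.8%, interval 19.4 to 30.8) were in introns. Coding exons held 5, exons of noncoding genes or pseudogenes 4, 3′ UTRs 3 and 5′ UTRs 1. Intervals cover counting error only. Of the 734 autosomal non-promoter peaks chosen by the same signal and window, 36.5% were intronic, and the share on X was lower in Fisher's exact test, two-sided (odds ratio 0.573, p = 8.50e-04). With a wider promoter window, of 1000 bp before and 500 bp after the start, the shares were 30.3% and 37.9% and the difference did not pass (exact p = 0.0921). The intergenic share was higher on X (69.7% against 51.9%, adjusted exact p = 1.03e-05 over 6 classes, a test added after the data were seen).

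The sequence outside promoter windows is itself more intergenic on X. It was 40.3% intergenic on X and 29.1% on the autosomes, so that the share of peaks was 1.73 times the share of bases on X and 1.78 times on the autosomes. For introns the same ratio was 0.765 on X, where introns made up 32.4% of the bases, and 0.986 on the autosomes, where they made up 37.0%. Coding exons held 21.3% of these bases on X but 2.14% of the peaks. Their share of peaks on the autosomes was 5.45%, and the difference did not pass adjustment (adjusted exact p = 0.0560), as for 5′ UTRs (0.427% against 2.72%, adjusted exact p = 0.0560).

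**Figure D2:**
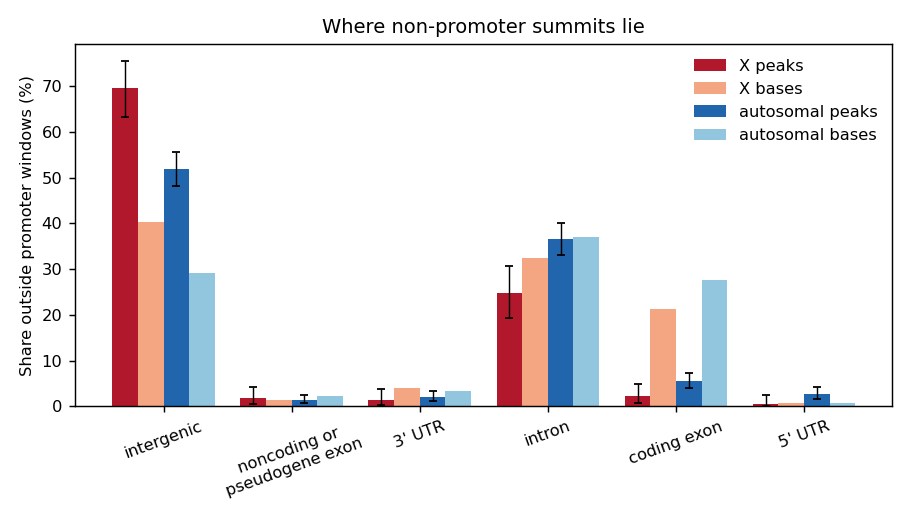
Share of non-promoter summits in each class of annotation on X (dark red) and the autosomes (dark blue), with exact 95% intervals, beside the share of non-promoter bases (light bars). Intergenic summits exceeded their share of bases on X (69.7% against 40.3%) and on the autosomes (51.9% against 29.1%).

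Peaks away from promoters made up 38.9% of the calls on X and 34.0% of the 2158 autosomal calls at the same signal, a description with no test, since signal and position chose them. Bases outside promoter windows made up 77.5% of X and 73.5% of the autosomes. Per megabase of such sequence there were 17.0 non-promoter calls on X and 12.1 on the autosomes. The median distance of the 234 summits to the nearest 5′ end of a protein-coding gene was 1818 bp (quartiles 986 and 2961), and 1541 bp on the autosomes. The share at 2000 bp or more was 45.7% on X and 39.1% on the autosomes, a difference that did not pass (exact p = 0.0789), and 46.4% and 39.3% of non-promoter bases lay as far. Summits in soft-masked, mostly repetitive, sequence made up 18.8%, against 22.1% on the autosomes (exact p = 0.314). Both shares were below those of non-promoter bases, of which 31.8% on X and 37.5% on the autosomes were soft-masked.

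Some listed motifs differed in frequency between the peaks on X and those on the autosomes. The peaks and lists were chosen with earlier results of these data known, so the motif tests are not independent of those results. Presence on either strand within 50 bp of the summit was compared for 16 motifs against both the 734 autosomal non-promoter peaks and the 367 promoter peaks on X, by two-sided Fisher's exact tests adjusted over all 32. The MEX part GCGCAGG was found at 19 of 234 peaks (8.12%), at 2 of 734 autosomal peaks (0.272%, adjusted exact p = 4.48e-09) and at 7 of 367 promoter peaks on X (1.91%, adjusted exact p = 0.00234). Among all windows of this length outside promoters on X, 0.169% held it. The overlapping CGCAGGGA was found at 10 peaks (4.27%), against 0.136% (adjusted exact p = 5.43e-05) and 0.817% (adjusted exact p = 0.0387). Both motifs were thus more frequent at non-promoter peaks on X than at either other set, while most of the 234 windows held neither.

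The differences from the promoter peaks on X depended on where the promoter window ended. With a narrower window of 250 and 100 bp the share with GCGCAGG was 6.39% (adjusted exact p = 0.0773), and with the 5′ ends of protein-coding genes alone it was 5.56% (adjusted exact p = 0.159). Against the autosomes, GCGCAGG passed under every alternative tried.

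GA repeats moved the other way. GAGAGA was found at 50 of the 234 peaks (21.4%) and at 39.6% of the autosomal non-promoter peaks (adjusted exact p = 3.03e-06), while 4.35% of all non-promoter windows on X and 4.93% on the autosomes held it. Its share at promoter peaks on X was 28.9%, a difference that did not pass here (adjusted exact p = 0.180) but passed under 4 of the alternatives. CTGCGTC was also less frequent than on the autosomes (5.98% against 14.9%, adjusted exact p = 0.00216) and was found at 7.08% of promoter peaks on X (adjusted exact p = 0.926). Of all non-promoter windows, 0.484% on X and 0.750% on the autosomes held CTGCGTC. The other 12 were the CA repeat CACACA, the TA repeat TATATA, the run AAAAAA, the E-box CACGTG, the E-box CAGCTG, the AP-1 word TGACTCA, the GATA word CTTATCA, the forkhead word GTAAACA, the E2F word GGCGGGAA, the GC-box word GGGCGG, the GC-rich word CCCCTC and the palindrome GCATGC. None of these was called in either comparison. The nearest to the threshold was GGGCGG, at 2.56% of the peaks and 6.81% of promoter peaks on X (adjusted exact p = 0.105). The strongest peak with GAGAGA outside the group of 16 lay near tps-1, which encodes a trehalose-phosphate synthase, and had signals of 277, 180 and 105. The 101 bases within 50 bp of its summit, shown as an example of the repeat, have the overlapping GAGAGA matches in capitals.
tps-1, chrX:17479956-17480056, plus strand: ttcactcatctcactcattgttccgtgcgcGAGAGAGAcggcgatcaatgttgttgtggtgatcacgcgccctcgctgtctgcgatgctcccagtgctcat

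**Figure D3:**
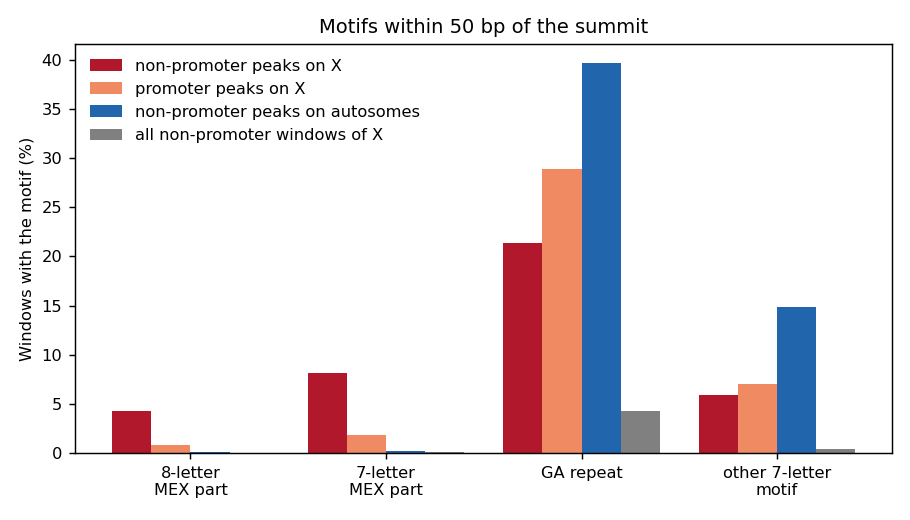
Share of windows within 50 bp of the summit that held each of the 4 motifs called against the autosomes, for non-promoter peaks on X (dark red), promoter peaks on X (orange), autosomal non-promoter peaks (blue) and all non-promoter windows of X (grey). The MEX parts, CGCAGGGA on the left and the shorter word beside it, were highest at non-promoter peaks on X. The GA repeat and the motif on the right, CTGCGTC, were highest at autosomal peaks.

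The MEX parts were concentrated in the strongest peaks, while GA repeats were not. Within 50 bp, GCGCAGG was found at 8 of the 16 strongest peaks, 3 of the next 44, 5 of the next 60, 3 of the next 60 and 0 of the last 54. The corresponding counts for GAGAGA were 2, 11, 18, 10 and 9. Within 150 bp, GCGNAGGGA was found at 11 of the 16 strongest peaks (68.8%) and at 10 of the other 218 (4.59%), at 0.272% of autosomal non-promoter peaks and in 0.206% of all non-promoter windows of X. The word and the window were chosen with the strongest peaks in view, so these shares carry no test.

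The matches sat close to the summit. Each match was counted once, at its nearest summit, since some wide calls had a pair of summits. Of the 20 matches within 500 bp of the 16 strongest summits, 12 were centred within 50 bp and 18 within 150 bp. For the 218 other peaks, 11 matches lay within 500 bp, 8 of them within 50 bp and 10 within 150 bp. A second word, TGGATAAA, was seen in several of the strongest windows and was found within 150 bp of 7 of the 16 summits (43.8%), against 1.38% of the 218 and 1.55% of all non-promoter windows of X.

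**Figure D4:**
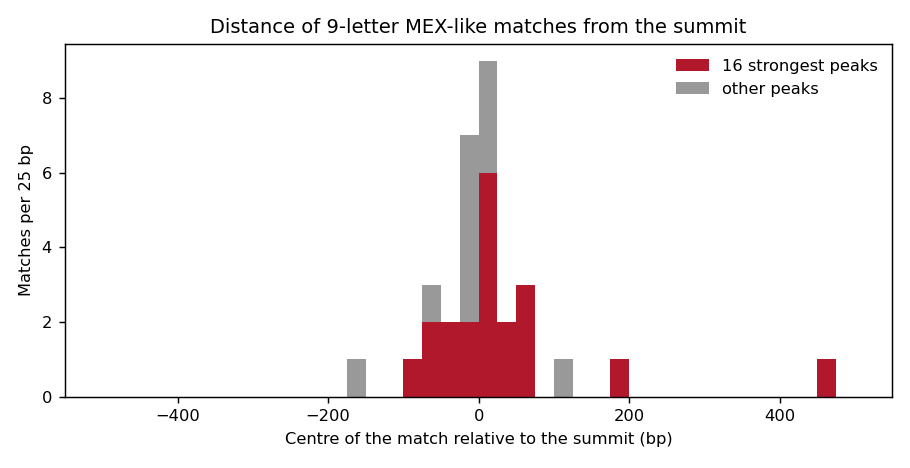
Distance from the summit to the centre of each match to GCGNAGGGA within 500 bp, in bins of 25 bp, for the 16 strongest peaks (red) and the 218 others (grey, stacked), each match counted once. Of the 20 matches at the strongest peaks, 18 lay within 150 bp of the summit.

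The same words elsewhere on X often had no peak of this strength beside them, and on the autosomes they almost never had one. On X, GCGCAGGGA occurred 25 times outside promoter windows, and 15 of these occurrences lay within 150 bp of a summit of the 234. The autosomes held 59 such occurrences outside promoter windows, and none lay within 150 bp of the 734 autosomal non-promoter summits. For GCGAAGGGA the counts were 11 of 40 on X (27.5%) and 0 of 114 on the autosomes, and for GCGNAGGGA 28 of 104 (26.9%) and 2 of 335 (0.597%). The shorter GCGCAGG had 31 of 258 occurrences near a summit on X and 10 of 1128 on the autosomes (0.887%). Over whole chromosomes, promoter windows included, the density of GCGCAGG was alike, at 20.1 matches per megabase of X and 19.9 of the autosomes. By the same measure GCGCAGGGA was denser on X (1.92 against 0.957). These counts are descriptions, since the longer words were chosen from the peaks.

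The summits were richer in GC than the sequence beside them. The median GC content was 47.5% within 50 bp of the summit and 34.9% in flanks of nearly the same length 250 to 302 bp away, and the summit was higher in 196 of 234 peaks (83.8%, two-sided exact sign test, p = 7.65e-27). The 16 strongest had 45.0% at the summit and 31.6% in the flanks, with the summit higher in 14 of 16. Their rise was also narrow. Between 60 and 80 bp right of the summit, mean GC was 35.6% at the 16 strongest peaks, 44.6% at the 218 others and 44.3% at the autosomal non-promoter peaks, although all 3 sets had 46.9% to 48.8% next to the summit.

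**Figure D5:**
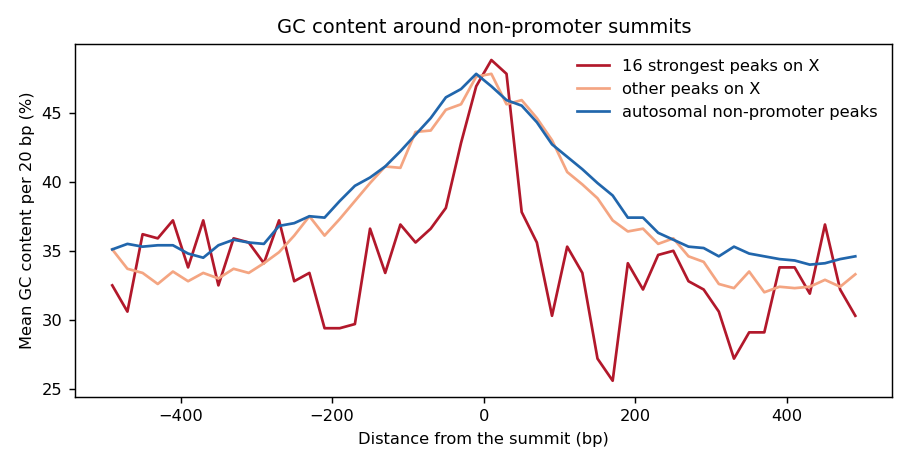
Mean GC content in bins of 20 bp from 500 bp left to 500 bp right of the summit, for the 16 strongest peaks (red), the 218 other peaks on X (light red) and the 734 autosomal non-promoter peaks (blue). The 16 strongest fell to 35.6% at the bin centred 70 bp right of the summit, where the other sets had 44.6% and 44.3%.

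Words of 6 bases, read on either strand, were compared between summit and flanks of the same peaks by exact McNemar tests, adjusted over all such words. More frequent at the summit were 56 (2.69% of those tested) and less frequent 55 (2.64%). AGGGAG was found at 33 summits and in the flanks of 1 peak (adjusted exact p = 2.83e-06), and CGCGCA in 30 against 2 (adjusted exact p = 5.69e-05). AGGGAG overlaps the 3′ part of GCGNAGGGA when a G follows. That longer word lay within 50 bp of 16 summits, so it was absent from many of the 33. GCGCGA was found in 26 against 1 (adjusted exact p = 8.64e-05). The GA repeat AGAGAG was found in 52 against 12 (adjusted exact p = 2.33e-05), although GA repeats were rarer here than at autosomal peaks. The 6-mers less frequent at the summit were led by AT-rich words, with AAAATT in 40 against 104 (adjusted exact p = 1.28e-07) and AAAATA in 27 against 77 (adjusted exact p = 5.87e-06). The rise of GC at the summit moves with all of these 6-mers, and its part in the counts was not tested.

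The peaks were assigned to their host gene where the summit lay inside a protein-coding gene, and otherwise to the protein-coding gene with the nearest 5′ end. This gave 189 of the 2731 protein-coding genes on X (6.92%), of which 52 held a peak inside and 33 had more than 1. An assignment by distance does not show which gene a site acts on, and long genes have more room for peaks. ZK470.2 had 5 peaks, with signals from 56.4 to 93.4. The heterochronic gene lin-14, which sets the timing of larval stages, had 4, of 237, 171, 51.8 and 50.9, in introns and the 3′ UTR. The nuclear hormone receptor gene nhr-40 also had 4, all inside the gene, with signals from 55.4 to 70.2.

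In the unc genes, named for uncoordinated movement, 7 of 16 on X had a peak, against 6.92% of all X genes, but their median length was 6.86 kb against 2.55 kb. Their strongest were at unc-10 (182 in the pooled list, 100 in replicate 1 and 80.8 in replicate 2), the synaptic active-zone protein RIM, and at unc-1 (158, 97.9 and 63.4), a stomatin-like protein. The gap junction gene unc-9 (71.9, 42.0 and 35.8) and the LIM-domain gene unc-97 (70.5, 39.4 and 31.8) followed. Of 23 nuclear hormone receptor genes, with a median length of 4.48 kb, 6 had a peak assigned and 2 held a peak inside. The highest were those nearest nhr-3 (173, 80.0 and 85.2), nhr-48 (110, 64.6 and 48.0), nhr-17 (109, 46.1 and 63.7) and nhr-1 (92.7, 49.4 and 47.5), all between genes. No test was made over these lists, and the part of gene length in their counts was not tested.

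The other groups are given by their counts, beside the 6.92% of all X genes, and nothing is read from these small numbers. The homeobox genes of the ceh class had 0 of 18, egl genes 0 of 5 and let genes 0 of 2. Neuropeptide and insulin genes had 2 of 34, at ins-39 (943) and in an intron of nlp-14 (62.3), and channels and transmitter receptors 2 of 52, at lgc-47 (66.1) and the dopamine receptor gene dop-3 (51.2). Collagens had 1 of 27, at col-185, and the other transcription factor families 1 of 12, at hlh-29. Of the lin genes 2 of 6 had a peak, lin-14 and lin-15B (55.7), a chromatin regulator. A list meant for dosage compensation and sex determination took the 10 genes on X named sdc, dpy, xol, sex, mix or capg. It was made by name alone, and a name does not show that a gene acts in these processes. Among the 10, 1 had a peak, dpy-23 (126), which shares the dpy name but encodes a subunit of the clathrin adaptor complex.

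Several regulators of development and metabolism were among the peaks just below the 20 strongest and are named after their values were seen. The intronic peak of pdk-1, a kinase of the insulin signalling pathway, had 298 in the pooled list, 178 in replicate 1 and 121 in replicate 2. The strongest of 3 peaks assigned to sma-9, a zinc-finger regulator of body size, had 241, 148 and 96.7. The intronic peak of daf-12, the nuclear receptor for dafachronic acids, had 240, 145 and 93.7. In all 3, replicate 1 was the higher, as in most of the set.

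Some of the peaks lay near microRNA genes. Within 2000 bp of the start of any of the 74 microRNA genes on X there were 9 of the 234 summits (3.85%), and 1.02% of the bases outside promoter windows on X lay as near. No test was made. The summits are not all separate sites, since mir-62, mir-2221 and mir-2212 each lay near a pair of them. The pair near mir-2221 came from the same wide call, and the pair near mir-2212 from overlapping calls. The nearest were 807 bp from let-7, the heterochronic microRNA that promotes the adult fate (signal 88.3), and 808 bp from mir-62 (signal 111). The peak nearest F56C3.1, the weakest of the 16 strongest, lay 1277 bp from mir-2221, and a peak of 127 lay 1798 bp from mir-34.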

How the data were processed

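Anti-GFP ChIP-seq libraries of 2 biological replicates were called by the authors as a list per replicate, a pooled list and an optimal list on ce11. Aligner, caller and versions were not given in the sources used here. Signals have no stated scale, and the lists on ce10 were not used. Each call carries a signal value as deposited by the authors, used to rank and describe calls, and the −log10 of a q-value deposited by the authors, not used to rank. The lists hold no read counts, and the sequencing depth is unknown.

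Gene models came from Ensembl release 115 and sequence from RefSeq, both of WBcel235, whose X has the length at which the last pooled call on X ended. Each non-promoter summit was given 1 class of annotation. Replicate signals are those of the overlapping call (1 bp or more) with the nearest summit. Shares were compared by two-sided Fisher's exact tests, GC content by an exact sign test and 6-mers by exact McNemar tests, with Benjamini-Hochberg adjustment and a threshold of 0.05. These treat peaks as independent and do not measure the spread between animals. However, 5 wide calls gave 2 summits each, and other calls overlapped, so that the 234 peaks formed 223 separate regions. Flanks ran from 250 to 302 bp, 2 bp farther than first planned, so that summit and flanks held 96 6-mer positions each. The 6-mer test was tried on simulated data. Python 3.11.15, SciPy 1.17.1 and pandas 2.3.3 were used.

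The peaks and lists were chosen with earlier results of these data known. The genes named are the 20 strongest peaks, the 3 peaks on each side of the threshold, and up to 4 of each of 11 gene lists, with others said to be added. Class tests other than introns, the distance and repeat tests, and words other than the 16 listed motifs were added after the data were seen. Alternatives were other promoter windows, signal thresholds, windows and flanks, the optimal list, each replicate alone and 1 summit per region, the last added after the data were seen.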

Additional observations from a re-analysis of the deposited data

How the results depend on the processing

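Of 134 alternative values, 103 kept their direction, their side of the threshold and, for counts, a size within 1.5 times. The number of peaks was 396 with 5′ ends of protein-coding genes alone, 95 at a signal of 100 or more and 135 in the optimal list. The intronic share did not pass with the promoter window of 1000 and 500 bp (30.3%, exact p = 0.0921). Motifs called against promoter peaks on X, 2 in the report, numbered 0 with the window of 250 and 100 bp, 1 with coding 5′ ends alone, 4 within 100 bp of the summit, and 2 to 4 without replicate 1 or without replicate 2. CTGCGTC changed direction against promoter peaks on X at 250 and 100 bp (7.67%). CGCAGGGA no longer passed against them there (3.19%) or with coding 5′ ends alone (2.78%). GAGAGA passed against them at 1000 and 500 bp (17.0%), with coding 5′ ends alone (21.2%), without replicate 1 (18.7%) and within 100 bp (32.9%). The 6-mers more and less frequent at the summit numbered 9 and 15 at 1000 and 500 bp, 133 and 105 at 250 and 100 bp, 198 and 154 with coding 5′ ends alone, 10 and 21 at a signal of 100, 21 and 30 in the optimal list, and 108 and 89 with flanks 500 bp away. Those more frequent numbered 32 to 34 in a single replicate. These numbers did not simply follow the number of peaks. The 234 peaks of the report gave 56 and 55, the 223 with 1 summit per region gave 59 and 64, and the 240 without replicate 2 gave 32 and 46. The causes of these differences were not tested. No paired analysis was possible because there was 1 group. With no read counts, what depth limits cannot be given.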
